A study of Mus musculus with 16 samples.

Results

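Intracellular calcium release and removal is described here through 10 genes of the 24060 listed in every library, chosen by their symbols: the inositol trisphosphate (IP3) receptors Itpr1, Itpr2 and Itpr3, the ryanodine receptors Ryr2 and Ryr3, the pump of the endoplasmic reticulum Atp2a2, the plasma-membrane calcium pumps Atp2b1, Atp2b2 and Atp2b4, and the sodium/calcium exchanger Slc8a1. All 10 were listed in all 16 libraries and all passed the filter on low values in every comparison. The mice were 3-month-old Aldh1l1CreERT2-RiboTag animals on the C57BL/6J background, all given tamoxifen at 2 months, so that astrocytes, in which the Aldh1l1 promoter drives the inducible Cre, carried an HA tag on the ribosomal protein Rpl22. From the somatosensory cortex, RNA was taken from the cleared lysate (INPUT, all cell types) and from ribosomes pulled down by the HA tag (IP), in naïve mice kept in their home cage and in mice that swam for 20 min and then recovered for 90 min. Each combination of IP or INPUT with naïve or stress had 4 libraries, 16 in all from 8 mice, 4 naïve and 4 stressed, whose lysates were each divided into INPUT and IP, and naïve and stressed mice shared genotype, tamoxifen and tissue.

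Calcium leaves the endoplasmic reticulum through channels of 2 families. IP3 receptors open when phospholipase C has made IP3 and cytosolic calcium favours opening, and ryanodine receptors open in response to calcium itself. SERCA pumps, of which Atp2a2 encodes SERCA2, return calcium to the store, while plasma-membrane pumps (PMCA, Atp2b genes) and sodium/calcium exchangers (NCX, Slc8a genes) move it out of the cell. In astrocytes the type 2 IP3 receptor, encoded by Itpr2, is best known for the large calcium signals of the soma that follow activation of Gq-coupled receptors, and the type 1 receptor is the abundant form of many neurons.

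Libraries held 16392876 to 25814364 reads on genes, so that 3 reads stood for at most 0.183 CPM (reads on a gene per 1000000 on all genes of a library). The labelled cell type was checked first. All 10 astrocyte markers were higher in naïve IP than in naïve INPUT, with a median log2 ratio of 3.55 (range 2.87 to 4.50), and all 12 neuronal markers were lower, with a median of −4.12 (range −4.74 to −1.16). Summed over the list, neuronal markers reached 1314 to 1515 CPM in the naïve IP libraries, 1180 to 1407 CPM after stress, and 14065 to 16604 CPM over both INPUT groups. The astrocyte sum stood at 92105 to 103921 CPM in IP and 5619 to 6513 CPM in INPUT. No astrocyte or neuronal marker was at 0 in any group as a whole, and the 4 markers of oligodendrocyte precursors, 9 of microglia and 7 of endothelium were all lower in naïve IP than in INPUT. Of the oligodendrocyte and mural markers tested, 7 of 8 and 4 of 5 were lower, the exceptions being Cnp and Pdgfrb. Over all genes, 64.0% were called lower. Summed over all 7 mural markers listed, the level was higher in naïve IP, at 152 to 202 CPM against 115 to 139 CPM in naïve INPUT. After stress the mural sums overlapped, at 127 to 162 CPM in IP and 111 to 143 CPM in INPUT. The mural sum was thus not depleted in IP. In naïve mice Pdgfrb alone of the tested mural markers was higher, with a log2 ratio of 2.37, against a list median of −1.46.

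The IP3 receptors went opposite ways between astrocyte ribosomes and whole cortex. Itpr2 (GRCm38, chromosome 6, 146108299 to 146502223, minus strand) stood at 346, 370.1, 412 and 418 CPM in the 4 naïve IP libraries and at 30.4, 32.2, 32.9 and 37.2 CPM in naïve INPUT. Every IP value lay above every INPUT value, and the means were 387 ± 34.3 against 33.2 ± 2.90 CPM (SD, n = 4), 11.6 times higher in IP. The log2 ratio was 3.54 (SE 0.076, 95% interval 3.37 to 3.70, limma adjusted p = 5.7e-14), above that of 99.4% of all genes tested and above that of 4 of the 10 astrocyte markers.

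Itpr1 (chromosome 6, 108213096 to 108551109, plus strand) had the opposite pattern. It stood at 159, 162, 168 and 185 CPM in naïve IP and at 1360, 1475, 1519 and 1610 CPM in naïve INPUT. The groups lay far apart, and the log2 ratio was −3.14 (SE 0.064, limma adjusted p = 3.7e-14), a value lower than that of all but 8.1% of genes. It was less negative than that of 10 of the 12 neuronal markers.

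Itpr3 (chromosome 17, 27057304 to 27122223, plus strand), the form best known from epithelia, was near the lower end of what was measured. It had 0.620 to 2.39 CPM in naïve IP and 2.75 to 4.46 CPM in naïve INPUT, and the log2 ratio was −1.42 (SE 0.352, limma adjusted p = 0.0019). The groups did not overlap, but after quantile normalization the ratio was −0.33 with a limma adjusted p of 0.36, and after rescaling by the median ratio it was −0.82 with a limma adjusted p of 0.053, so the call depended on the scaling.

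Ryr2 (chromosome 13, 11553102 to 12106945, minus strand), known as the cardiac form and also common in brain, was at 106 ± 4.43 CPM in naïve IP against 536 ± 50.3 CPM in naïve INPUT (SD, n = 4). Its log2 ratio was −2.33 (SE 0.067, limma adjusted p = 7.3e-13). Ryr3 (chromosome 2, 112631355 to 113217096, minus strand) was scarcer, at 10.0 ± 0.842 CPM in naïve IP against 30.0 ± 3.26 CPM in naïve INPUT, with a log2 ratio of −1.57 (SE 0.10, limma adjusted p = 3.3e-09). Both were lower in every IP library than in any INPUT library. Exons of Ryr3 overlap those of Aven on the opposite strand by up to 916 bases, and whether the counting used strand is not given in the sources used here, so reads of Ryr3 and Aven may be mixed.

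Atp2a2 (chromosome 5, 122453513 to 122502225, minus strand) was the member closest to equal between IP and INPUT. It stood at 918, 931, 951 and 966 CPM in naïve IP and at 1289, 1308, 1322 and 1436 CPM in naïve INPUT. The IP libraries were the lower ones without overlap, by a log2 ratio of −0.51 (SE 0.052, limma adjusted p = 5.5e-07). This was slightly above the median gene, by 0.13 on the log2 scale. The direction was not the same under every scaling. Rescaled by the median ratio of genes, the log2 ratio of Atp2a2 was 0.13 (limma adjusted p = 0.058). After quantile normalization it stayed negative at −0.81.

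The plasma-membrane pumps, which are high-affinity extruders of calcium, were all lower in IP. Atp2b2 (chromosome 6, 113743831 to 114042613, minus strand) had the largest difference of the 3, with 288, 305, 321 and 362 CPM in naïve IP against 1790.0, 2092, 2124 and 2365 CPM in naïve INPUT, a log2 ratio of −2.71 (SE 0.086). Atp2b1 (chromosome 10, 98914406 to 99026143, plus strand) was at 248 ± 9.51 CPM in naïve IP against 1315 ± 76.3 CPM in naïve INPUT, a log2 ratio of −2.41 (SE 0.054). Atp2b4 (chromosome 1, 133699457 to 133801041, minus strand) was at 88.6 ± 8.14 and 305 ± 7.99 CPM, a log2 ratio of −1.79 (SE 0.066), and of the 3 pumps it was the least depleted. The limma adjusted p of each was at most 9e-12.

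Slc8a1 (chromosome 17, 81373105 to 81738377, minus strand), the exchanger NCX1 that trades sodium for calcium across the plasma membrane, was the most depleted member. It stood at 84.7, 85.6, 87.9 and 112 CPM in naïve IP and at 789, 907, 937 and 1042 CPM in naïve INPUT. Its log2 ratio was −3.31 (SE 0.096, limma adjusted p = 8.1e-13), and 10 of the 12 neuronal markers had a lower one. The library at 112 CPM, naïve IP replicate 13, also had the highest sum of neuronal markers in its group, 1515 CPM against 1314 to 1329 CPM in the others, and the part of these markers in the result was not tested.

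**Figure D1:**
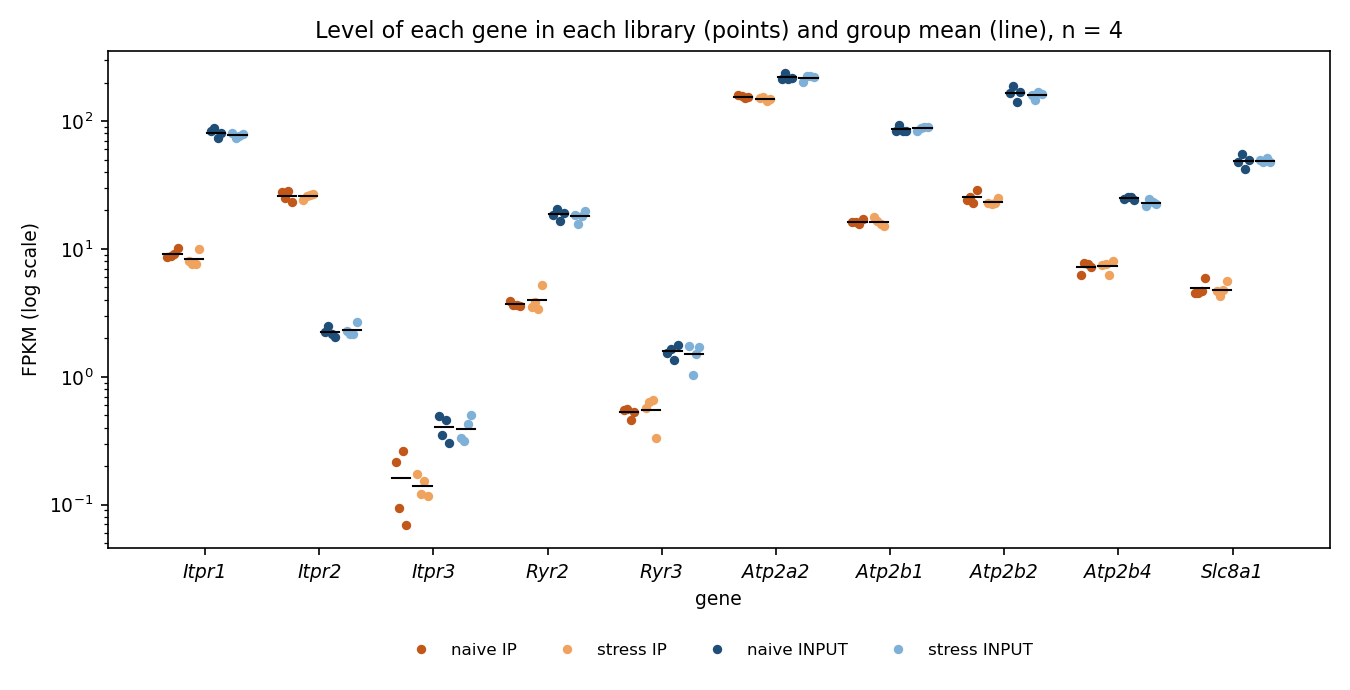
Level of each of the 10 genes in FPKM (CPM per kilobase of annotated exon, log axis) in each of the 16 libraries, with 4 points and a line at the mean for each of the 4 groups. Itpr2 is the gene whose IP points lie above its INPUT points, while naïve and stress points of the same kind overlap for every gene.

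In all, 1 of 10 genes was called higher in IP and 9 were called lower, in naïve mice and again in stressed mice, and in neither did the IP and INPUT libraries of any of the 10 overlap. These counts stand beside a background in which most genes were called: 87.7% of 13339 genes in naïve mice, 23.7% higher and 64.0% lower, and 86.1% of 13333 genes in stressed mice, 23.6% higher and 62.5% lower. Without any call, groups did not overlap for 83.7% of genes in naïve and 81.4% in stressed mice, so being called says little about these 10 genes, and the size and direction of each ratio carries the description. The median log2 ratio of the 10 genes was −2.06 in naïve mice, against −0.64 over all genes. Of the calls in naïve mice, 27.0% were higher in IP with scaling by library total, 49.8% after rescaling by the median ratio and 50.7% after quantile normalization, and in stressed mice these shares were 27.4%, 49.6% and 51.5%. Under the latter scalings Itpr2 was called higher in naïve mice as before, and 7 genes (median ratio) or 8 genes (quantile) were called lower.

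The ratios in stressed mice lay close to those in naïve mice, which are other animals. The log2 ratio was 3.49 for Itpr2, −3.23 for Itpr1, −1.41 for Itpr3, −2.19 for Ryr2 and −1.45 for Ryr3. It was −0.55 for Atp2a2, −2.44 for Atp2b1, −2.78 for Atp2b2, −1.65 for Atp2b4 and −3.36 for Slc8a1. IP differs from INPUT in the cells it comes from and also in holding RNA bound to ribosomes, and these cannot be told apart. Nor can fewer cells of a type and less RNA per cell in a bulk library.

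**Figure D2:**
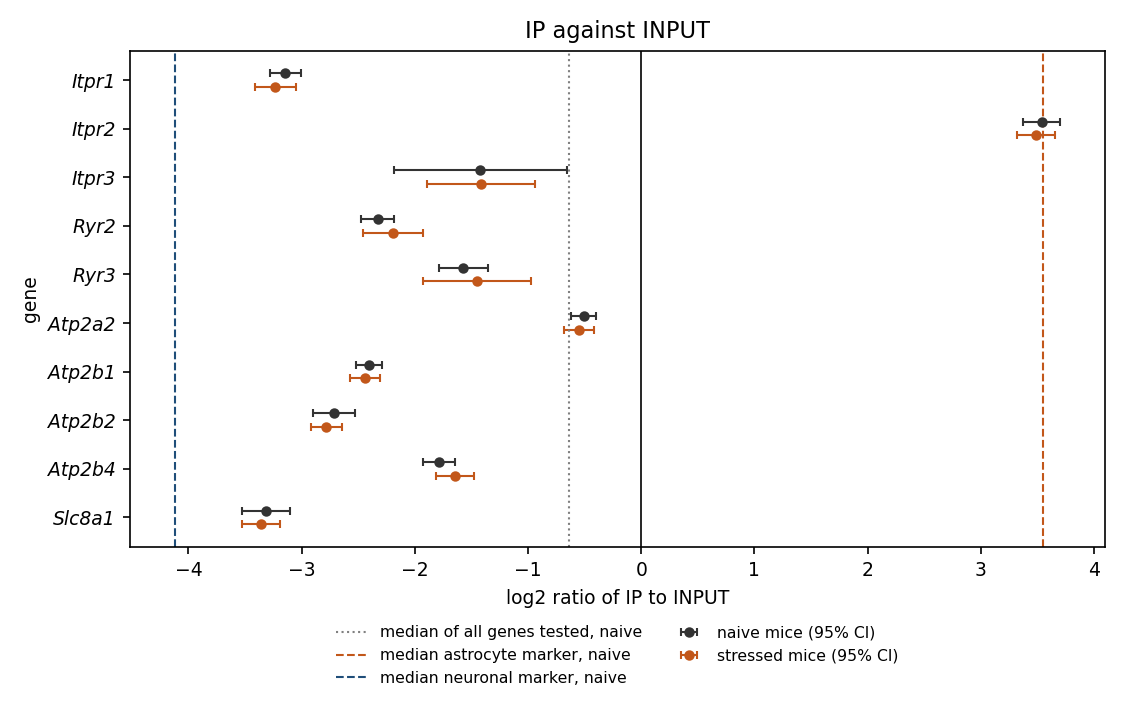
Log2 ratio of IP to INPUT for each gene with its 95% confidence interval from limma, in naïve mice (dark) and stressed mice (orange), 4 libraries a group. Vertical lines mark 0, the median of all genes tested in naïve mice (−0.64), the median neuronal marker (−4.12) and the median astrocyte marker (3.55), and Itpr2 lies at the astrocyte line while the other genes lie between the neuronal line and 0.

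Set per length, so that genes can be ranked, the level in naïve IP was highest for Atp2a2 at 155 ± 3.55 FPKM (SD, n = 4). Itpr2 followed at 26.1 ± 2.32 and Atp2b2 at 25.3 ± 2.50 FPKM, and the ranges of these overlapped. Atp2b1 was at 16.3 FPKM, Itpr1 at 9.21, Atp2b4 at 7.23, Slc8a1 at 4.92, Ryr2 at 3.70, Ryr3 at 0.527 and Itpr3 at 0.161 FPKM, and no neighbours in this stretch overlapped in naïve IP. Stress IP kept the same order, with overlap between Itpr1 and Atp2b4 and between Slc8a1 and Ryr2 as well.

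Naïve INPUT was ordered otherwise. Atp2a2 at 220.2 FPKM again came first, then Atp2b2 at 166, Atp2b1 at 86.4 and Itpr1 at 81.4 FPKM, of which the last pair overlapped. Slc8a1 at 48.9, Atp2b4 at 24.9 and Ryr2 at 18.6 FPKM stood above Itpr2, which was the eighth of the 10 at 2.24 FPKM, and Ryr3 at 1.58 and Itpr3 at 0.403 FPKM came last. With these lengths, the place of Itpr2 moved from the eighth in INPUT to the second in IP. Merged exons hold 15218 bases for Atp2b1, 12612 for Atp2b2 and 14802 for Itpr2, and the longest transcripts 7130, 8877 and 11679. Shorter lengths would raise the 2 pumps more than Itpr2. The order was not made with other lengths, so the place of Itpr2 among its neighbours in IP rests on this choice.

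Isoform use was then set within each family, as the percent of the family's summed FPKM that each paralog held in a library. This measure does not depend on scaling between libraries. It included the paralogs outside the 10 genes: Ryr1, Atp2a1, Atp2a3, Atp2b3, Slc8a2 and Slc8a3. In IP a share is that of the pulled-down RNA, where neuronal markers still summed to 1314 to 1515 CPM in naïve mice. These markers summed to 14821 to 15633 CPM in naïve INPUT, and their part in the shares was not tested. Of 16 shares, 10 did not overlap between IP and INPUT in naïve mice and 11 in stressed mice. Each of these had a two-sided exact permutation p of 0.029, the smallest that 4 against 4 libraries allow, and p-values were not adjusted over the 16 shares. Beside this, the levels of 83.7% of all genes in naïve and 81.4% in stressed mice did not overlap. Levels depend on scaling between libraries, unlike shares, and no background of shares was made. Shares of a family sum to 100%, so they are not separate results. The SERCA shares are counted too, though they differed by at most 0.42 points in naïve mice.

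Among IP3 receptors the prevailing paralog was exchanged. Itpr2 held 69.7, 73.6, 75.0 and 75.7% of the family in the 4 naïve IP libraries and 2.47, 2.60, 2.77 and 2.83% in naïve INPUT. Itpr1 held 26.1 ± 2.90% in naïve IP and 96.9 ± 0.240% in naïve INPUT (SD, n = 4). The mean CPM of Itpr1 in naïve IP was 0.113 times that in naïve INPUT. How much of it came from neuronal RNA left in IP was not tested. Itpr3 held 0.444% and 0.483% of the family, and these overlapped (exact permutation p = 0.77). In stressed mice Itpr2 held 75.5 ± 2.18% in IP and 2.88 ± 0.238% in INPUT. The family as a whole summed to 35.5 ± 2.03 FPKM in naïve IP and 84.0 ± 5.78 FPKM in naïve INPUT. Other choices of gene length left the share of Itpr2 in naïve IP between 65.6% with the longest transcript and 69.7% with the coding sequence.

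Ryanodine receptors were mostly Ryr2 in both kinds of library. Its share was 84.1 ± 1.56% in naïve IP and 89.4 ± 0.648% in naïve INPUT, without overlap, and the share of Ryr3 was the higher one in IP, at 12.0 ± 0.700% against 7.59 ± 0.455%. In stressed mice both shares overlapped between IP and INPUT (exact permutation p = 0.14). Stress IP replicate 15 stood apart there, with 6.31 CPM of Ryr3 where the other 3 had 10.8 to 12.6 CPM, and 149 CPM of Ryr2 where they had 97.7 to 109.7 CPM. Ryr1, the form of skeletal muscle, held 3.89% and 3.02% in naïve mice (p = 0.11, exact permutation test). The family summed to 4.40 FPKM in naïve IP, under the 35.5 FPKM of the IP3 receptors, and to 20.8 FPKM in naïve INPUT.

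SERCA transcripts were nearly all Atp2a2, with 99.9% of the family in naïve IP and 99.5% in naïve INPUT. Atp2a3 held 0.0949% and 0.481%, and Atp2a1, the form of fast skeletal muscle, was under the level of 3 reads in IP on average, at 0.0317 CPM. The SERCA sum was 155 ± 3.56 FPKM in naïve IP and 221 ± 10.9 FPKM in naïve INPUT.

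Plasma-membrane pumps differed in smaller steps. Atp2b4 held 13.8 ± 1.55% of the family in naïve IP and 7.60 ± 0.587% in naïve INPUT, and Atp2b1 held 31.0 ± 0.896% and 26.3 ± 0.833%. Atp2b3, a form found mainly in neurons, went the other way, with 7.20 ± 0.796% in IP and 15.7 ± 1.14% in INPUT. Atp2b2 held the largest share in both, 48.0 ± 1.76% and 50.4 ± 2.47%, and these overlapped (exact permutation p = 0.14). In stressed mice the separation of 2 shares depended on the lengths used. The exact permutation p for Atp2b1 was 0.029, and up to 0.057 with 2 of 3 other lengths. That for Atp2b2 was 0.086, and down to 0.029 with 2 of the 3. The family sum was 52.6 FPKM in naïve IP and 329 FPKM in naïve INPUT.

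The exchanger family fell almost evenly to Slc8a1 and Slc8a2, the brain form NCX2. Slc8a1 held 46.0 ± 4.41% in naïve IP and 41.7 ± 2.58% in naïve INPUT, which overlapped (exact permutation p = 0.17). In stressed mice it held 49.2 ± 4.18% against 42.1 ± 1.63% without overlap (exact permutation p = 0.029), and Slc8a2 held 40.0% against 49.3%. The sum of the family was 10.7 FPKM in naïve IP and 117 FPKM in naïve INPUT. With no division by length Slc8a1 held 75.1% and 71.8%, so the split between these paralogs depended on the lengths used.

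**Figure D3:**
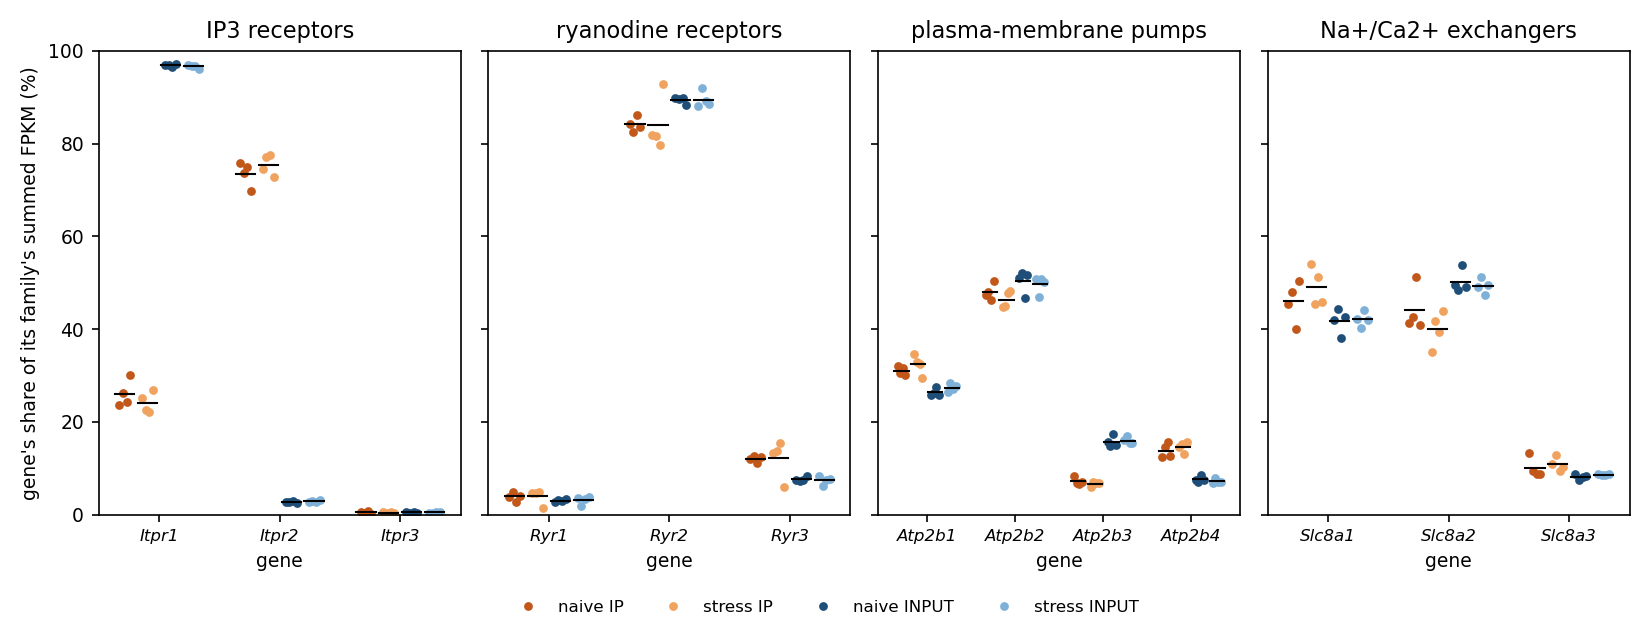
Share of each paralog in the summed FPKM of its family, in percent, for IP3 receptors, ryanodine receptors, plasma-membrane pumps and sodium/calcium exchangers, with 4 libraries (points) and their mean (line) in each group. Itpr1 and Itpr2 exchange places between IP and INPUT, and the largest difference in the other families is that of Atp2b3, with 6.61% in IP and 15.9% in INPUT of stressed mice.

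The genes whose pattern over the 16 libraries was most like that of Itpr2, by the root mean square (RMS) difference of centred log2 values among 13340 genes, were Sash1 (RMS 0.105), Myo6 (0.108) and Tril (0.108), where the median gene had 2.09. Nearest to Itpr1 were Pacsin1 (0.065), Peg13 (0.075) and Adcy1 (0.077), with a median gene at 1.30. Nearest to Atp2a2 were Pip4k2a (0.047), Trak2 (0.055) and Nckap1 (0.060), with a median gene at 0.497.

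Other genes of the pathway were taken from 7 lists arranged by role, 88 genes in all, of which 79 were tested in naïve mice. There 28 were called higher in IP, 45 lower and 6 were not called, with a median log2 ratio of −0.57 against −0.64 over all genes. The counts of this list and of each role stand beside 23.7% of all genes called higher and 64.0% called lower. After rescaling by the median ratio, 38 were called higher and 35 lower.

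Genes of IP3 production were split, with 5 of 12 higher and 6 lower. Plcd4 and Plcb3, which encode phospholipases C of the delta and beta classes, had log2 ratios of 3.43 and 3.34. Plcb3 was at 152 ± 1.98 CPM in naïve IP against 14.9 ± 1.18 CPM in naïve INPUT. Plcb4 and Plcb2 of the same beta class had ratios of −2.63 and −2.05. The median of this list was −0.06 by library total and 0.58 after rescaling by the median ratio.

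Enzymes that break IP3 down were called higher for 2 of 8 and lower for 5. Itpkb, an IP3 3-kinase, had a log2 ratio of 2.50, and Impa2, an inositol monophosphatase, of 0.86. The neuronal kinase Itpka had −3.85 and the 5-phosphatase Inpp5j −1.68. With either of the other scalings 5 of the 8 were called higher.

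Partners of the release channels were higher for 8 of 17 and lower for 9, under all 3 scalings. Itprid2, listed under its older symbol Ssfa2, had a log2 ratio of 2.58. Ahcyl1, which encodes IRBIT, a protein that competes with IP3 for its receptor, had 2.23 and was abundant, at 1632 ± 89.9 CPM in naïve IP against 349 ± 16.2 CPM in naïve INPUT. Jph3, a junctophilin that holds the reticulum to the plasma membrane, had −3.68, and Bok, of the Bcl-2 family, −3.67.

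Other pumps and exchangers were mostly lower in IP, 8 of 12, with 3 higher. Slc8b1, the sodium/calcium exchanger of mitochondria, had a log2 ratio of 2.94, and Tmco1, a calcium channel of the endoplasmic reticulum, 0.89. The exchanger Slc24a2 had −3.84 and the pump Atp2b3 −3.76. In store-operated entry, 2 of 7 were higher, the channel Orai1 with 1.40 and the Stim1 regulator Saraf with 0.82, and 5 were lower, among them Orai2 with −3.71 and the store sensor Stim2 with −2.38. With either of the other scalings 3 of the 7 were called lower and 2 were not called, and the list's median moved from −0.71 to −0.07 and −0.11.

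Of the genes for mitochondrial calcium, 4 of 10 were higher, such as Mcur1 with a log2 ratio of 2.32 and Letm1 with 0.38, and 4 were lower, such as the uniporter subunit Micu3 with −3.28. Vdac3 was called lower with −0.66, and its ratio was −0.02 (limma adjusted p = 0.80) after rescaling by the median ratio. The even split of this list rested on scaling by library total, since 7 were called higher and 1 lower after rescaling by the median ratio and 6 higher and 1 lower after quantile normalization, and the list's median moved from 0.02 to 0.66 and 0.55. Among calcium-binding proteins 4 of 13 were higher, S100b with 2.19 and the chaperone Canx with 0.89 at the head, and 8 were lower, with −5.11 for the interneuron protein Pvalb and −4.39 for Calb1. All 28 genes named from these lists were also called in stressed mice in the same direction.

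**Figure D4:**
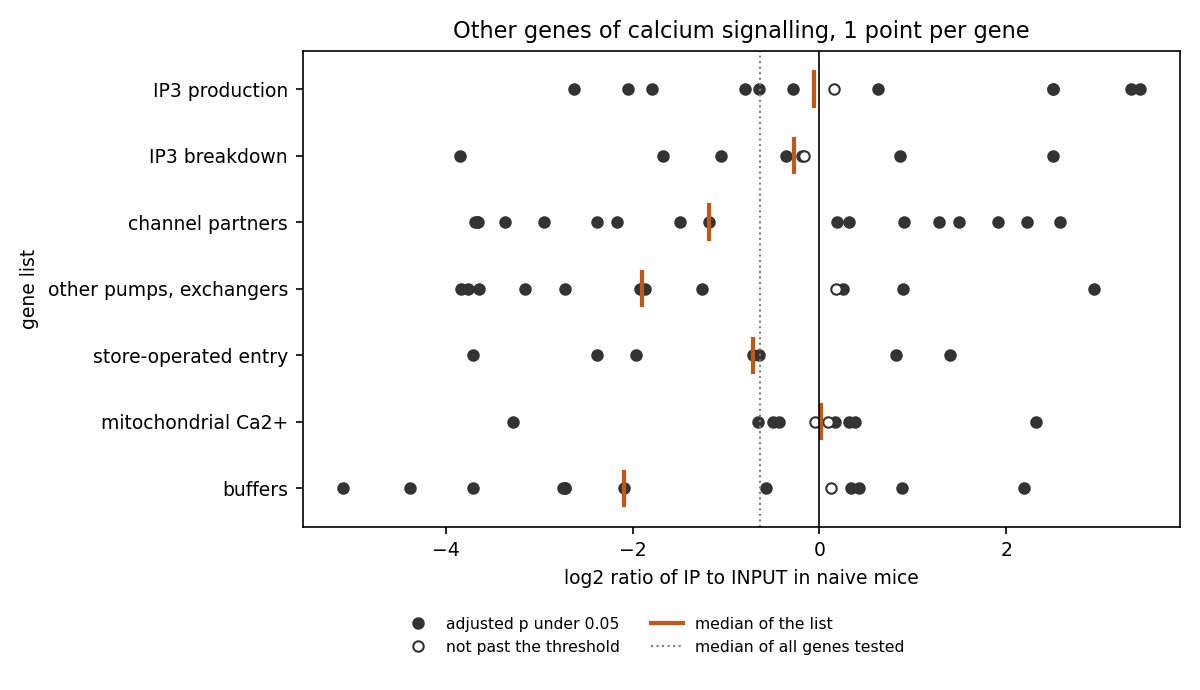
Log2 ratio of IP to INPUT in naïve mice for each tested gene of 7 lists of calcium signalling (1 point per gene, filled where the limma adjusted p is under 0.05), with the median of each list (orange) and of all genes tested (dotted, −0.64). Every list has points on both sides of 0, and the median of the lists together is −0.57.

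Whether acute stress altered the 10 genes in astrocytes was asked within IP. None was called: 0 of 10 passed the limma test, against 0.44% of 12501 genes in the background, and 0 of 10 had an unadjusted p under 0.05, against 8.27% of genes. limma-voom on recovered reads also called 0. Naïve and stress libraries overlapped for each of the 10, where 5.0% of all genes had groups without overlap.

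Itpr2 ranged over 346 to 418 CPM in the naïve libraries and had 355, 387, 394 and 399.6 CPM after stress. The means were 387 ± 34.3 and 384 ± 19.7 CPM, with a log2 difference of −0.01 (95% interval −0.16 to 0.15). A change of Itpr2 inside that interval is not excluded by these libraries.

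Itpr1 had the smallest p of the 10. The naïve libraries held 159 to 185 CPM and the stress libraries 139, 140.2, 148 and 182 CPM, so 3 of 4 stress libraries lay under all naïve ones. The log2 difference was −0.15 (SE 0.086, 95% interval −0.34 to 0.04, limma adjusted p = 0.69, exact permutation p = 0.17). The exception at 182 CPM was stress IP replicate 15, which had the highest sum of neuronal markers in its group, 1407 CPM against 1180 to 1232 CPM. Without this library the difference was −0.24 with a limma adjusted p of 0.12. Leaving it out also raised the genes called over all genes from 55 to 101, and those with an unadjusted p under 0.05 from 1034 to 1610. Over the list of neuronal markers, 10 of 12 had a negative difference between stress and naïve IP, with a median of −0.24 and none called. So had 6 of 8 oligodendrocyte, 3 of 3 precursor, 5 of 7 microglial, 3 of 3 endothelial and 2 of 3 mural markers tested. Of the astrocyte markers 3 of 10 were negative. The part of any of these cell types in the values of Itpr1 was not tested.

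Atp2a2 had means of 941 ± 21.6 CPM without and 907 ± 28.7 CPM with stress (SD, n = 4), a log2 difference of −0.05 (95% interval −0.16 to 0.06). Atp2b2 had −0.12 (−0.27 to 0.04), Atp2b1 −0.01 (−0.13 to 0.12) and Atp2b4 0.02 (−0.17 to 0.22). For Slc8a1 the difference was −0.03 (−0.25 to 0.20), for Ryr2 0.08 (−0.16 to 0.33) and for Ryr3 0.02 (−0.40 to 0.43). The interval of Itpr3 ran from −0.84 to 0.80, so a change of this scarce transcript anywhere in that wide range is not excluded.

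In whole cortex stress called 0 of 10 genes as well, against 0.0442% of 13577 genes, and limma-voom called 0. No gene of the 10 had groups without overlap, against 2.87% of all genes. One gene had an unadjusted p under 0.05, which 5.03% of all genes had. This was Atp2b4, at 296, 300.2, 310 and 313 CPM in naïve INPUT and 266, 277, 284 and 299 CPM in stress INPUT, where only the highest stress value overlapped. Its log2 difference was −0.12 (95% interval −0.22 to −0.01, limma adjusted p = 0.97, exact permutation p = 0.057). Of the endothelial markers 7 of 7 had a negative difference in the same comparison (median −0.23, 0 called). So had 7 of 8 markers of oligodendrocytes, 4 of 4 of their precursors and 6 of 9 of microglia. Negative were also 7 of 12 neuronal, 4 of 7 mural and 6 of 10 astrocyte markers. The part of any of these cell types in the value of Atp2b4 was not tested. The other 9 genes had differences between −0.11 for Ryr3 and 0.04 for Itpr2.

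The difference between the stress effect in IP and that in INPUT was called for 0 of 10 genes, against 0.0225% of 13341 genes, and 0 of 10 had an unadjusted p under 0.05, against 4.71% of genes. It ranged from −0.09 for Itpr1 to 0.14 for Atp2b4. Family shares did not separate stress from naïve either: 0 of 16 were without overlap in IP, with a smallest exact permutation p of 0.26, and 0 of 16 in INPUT, with a smallest of 0.11. Itpr2 held 73.5 ± 2.70% of the IP3 receptors in naïve IP and 75.5 ± 2.18% in stress IP (exact permutation p = 0.31). Of the genes in the role lists, 0 of 75 were called in IP and 0 of 80 in INPUT, against 0.44% and 0.0442% of all genes. An unadjusted limma p under 0.05 was seen for 8 of the 75 and 5 of the 80, against 8.27% and 5.03% of all genes. These counts lie near the background.

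**Figure D5:**
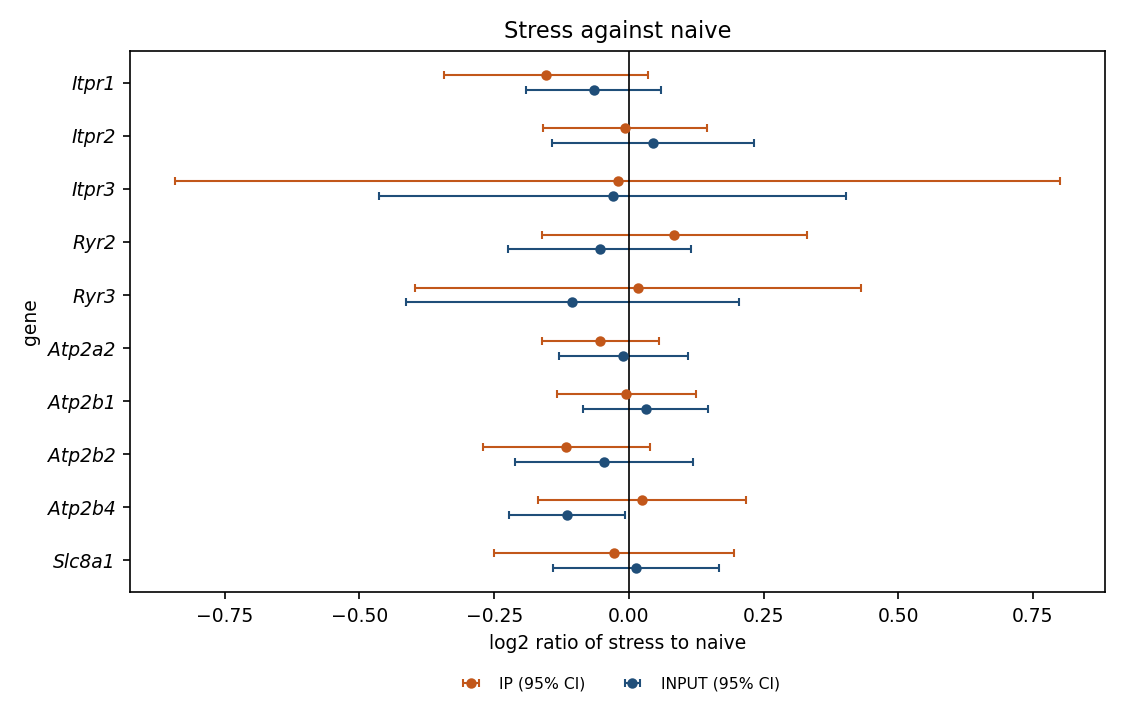
Log2 ratio of stress to naïve for each gene with its 95% confidence interval from limma, within IP (orange) and within INPUT (blue), 4 libraries a group. All intervals include 0 except that of Atp2b4 in INPUT, which ends at −0.01, and Itpr3 has the widest interval in both.

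The sampled time was 90 min after the swim, and later times were not analysed here. Nothing in the labels ties an IP library to the INPUT library of the same mouse, so libraries that share a mouse entered the tests of IP against INPUT and of the difference of the stress effects as if they were independent.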

How the data were processed

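RNA sequencing was used from 16 libraries, 4 in each of the 4 groups. Per the study's methods and processing notes, the authors used STAR with mm10 for alignment and HTSeq for counting uniquely mapped fragments on RefSeq genes, named edgeR and limma as further tools, and deposited 1 log2 CPM value per gene and library. Versions are not given in the sources used here. The values are scaled by the library's total, with a small added constant (0.25 reads at the mean depth) and no gene length. A given number of reads on a longer gene is therefore no higher level, and a ratio of IP to INPUT is relative to each library's total. From the deposited log2 CPM, whole reads were recovered for 100% of values (tolerance 0.1 read).

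IP was compared with INPUT in naïve and in stressed mice, and stress with naïve in IP and in INPUT, on 8 libraries each, and the 2 stress effects with each other on 16. The test was limma (version 3.58.1, R 4.3.3, eBayes with a variance trend) on log2(CPM + 0.1) for all genes with a mean above 1 CPM, with Benjamini-Hochberg adjustment over all of them and a threshold of 0.05. Fold changes are on that scale and understate those of low genes. For shares and single genes, exact permutation tests (two-sided, 70 labelings) have a smallest p of 0.029. FPKM here is CPM per kilobase of merged exons in GENCODE M21 (GRCm38), where 94.8% of 24060 symbols were found by name. Other steps used Python 3.11.15 with pandas 2.3.3, NumPy 2.4.6, SciPy 1.17.1 and matplotlib 3.10.9.

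Reads per library had a median of 21167241, floors of 3 reads cover counting error only, and reads after PCR are not independent molecules. No pair of libraries was identical. The 10 genes and all lists were chosen with earlier results of these data known. The text names the 10 genes, their paralogs, the genes past the threshold for stress and up to 2 genes in each direction with the largest ratios of each role list, and the 3 genes of most alike pattern for Itpr1, Itpr2 and Atp2a2. Cnp, Pdgfrb and Aven were named after their values or places were seen. The methods give an interval after tamoxifen that differs from the 4 weeks of the labels. Other settings tried were limma-voom, array weights, no trend, a pseudocount of 0.01 or 1, a filter at 5 CPM or none, quantile normalization, rescaling by the median ratio, all 16 libraries in 1 model, sex as read from Xist and Ddx3y (2 of 4 libraries of each group each way), other gene lengths, and each library left out in turn.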

Additional observations from a re-analysis of the deposited data

Results flagged for a closer look

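In 3 of 40 groups of 4 libraries (10 genes in 4 groups), 1 library lay so far from the others that its gap to the nearest, as a part of the group's whole range, was above Dixon's 95% critical value for 4 values. Chance alone gives about 2 in 40.

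Atp2b1 reached 1429 CPM in naïve INPUT replicate 7, where the rest of the group had 1272 to 1282 CPM, a ratio of 0.936.

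Atp2b2 reached 313 CPM in stress IP replicate 15, where the rest had 285 to 289 CPM, a ratio of 0.836.

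Slc8a1 reached 112 CPM in naïve IP replicate 13, where the rest had 84.7 to 87.9 CPM, a ratio of 0.883. The neuronal marker sums were 1515 CPM in replicate 13 and 1407 CPM in replicate 15, the highest of their groups, and their part in these values was not tested.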

How the results depend on the processing

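No paired analysis was possible because the library numbers are unique and nothing in the labels ties an IP library to an INPUT library of the same mouse. Under 11 other settings (10 for the difference of the stress effects, which uses all libraries already) and with each library left out in turn, 1 gene was called higher in IP in naïve and in stressed mice, 7 to 9 of 10 were called lower, and stress called 0 of 10 in IP, in INPUT and in the difference between them. Itpr3 was not tested with a filter at 5 CPM, which leaves 9 genes there. Rescaling by the median ratio turned Atp2a2 to 0.134 in naïve and 0.077 in stressed mice (limma adjusted p = 0.058 and 0.38), and Itpr3 was −0.82 (adjusted p = 0.053) in naïve mice under it and −0.29 (adjusted p = 0.21) in stressed mice after quantile normalization. In naïve mice the median gene lay at −0.64 by library total, −0.003 after rescaling by the median ratio and 0.017 after quantile normalization. Why single genes moved by other amounts was not tested. Small uncalled stress differences changed sign, and the cause was not tested. In IP, array weights gave 0.021 for Itpr2, 0.23 for Itpr3 and −0.027 for Atp2b4, while Itpr3 had 0.117 after quantile normalization and 0.003 with limma-voom. In INPUT, array weights gave 0.17 for Itpr3, 0.004 for Atp2a2 and −0.008 for Slc8a1, and quantile normalization 0.009 for Atp2b2. A pseudocount of 1 gave −0.03 for Itpr3 in the difference of the stress effects. The share of Itpr3 differed between IP and INPUT by 0.0516, 0.0165 and 0.0139 points in naïve mice with the longest transcript, no length and the coding sequence, and by 0.0258 points in stressed mice with the longest transcript. With 1 library left out, the stress difference in IP ran from −0.058 to 0.032 for Itpr2, −0.33 to 0.267 for Itpr3, −0.051 to 0.153 for Ryr2, −0.087 to 0.24 for Ryr3, −0.045 to 0.026 for Atp2b1, −0.04 to 0.097 for Atp2b4 and −0.101 to 0.066 for Slc8a1. In INPUT it ran from −0.025 to 0.101 for Itpr2, −0.152 to 0.075 for Itpr3, −0.114 to 0.013 for Ryr2, −0.185 to 0.064 for Ryr3, −0.028 to 0.028 for Atp2a2, −0.119 to 0.015 for Atp2b2 and −0.057 to 0.076 for Slc8a1. The difference of the effects ran from −0.108 to 0.019 for Itpr2, −0.3 to 0.297 for Itpr3, −0.047 to 0.345 for Ryr3, −0.131 to 0.003 for Atp2b2 and −0.115 to 0.052 for Slc8a1. The Itpr3 share difference in naïve mice ran from −0.125 to 0.0414 points. Shares without overlap between stress and naïve mice numbered 0 to 3 in IP (3 without stress IP replicate 15) and 0 to 2 in INPUT (2 without naïve INPUT replicate 14 and 2 without stress INPUT replicate 9). Over all genes, stress called 55 in IP, but 143 with array weights, 124 with all libraries in 1 model, 19 with no trend, 2 with no filter and 17 to 122 with 1 library left out. In INPUT it called 6, and 50, 2, 0 (727 at an unadjusted p under 0.05; limma-voom 5), 1 and 1 to 32 under the same settings. The difference called 3, with 19 under array weights, 2 with no trend, 2 with no filter and 2 to 28 with 1 library left out. Depth limits Itpr3 most, at 16 to 85 reads per library.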

Other observations

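In single libraries of the IP, several members held the highest or lowest value of their group. How often all genes do so was not counted. Stress IP replicate 15 mattered beyond these members: leaving it out raised the stress calls in IP over all genes from 55 to 101. Stress IP replicate 15 held the highest values of its group for Itpr1 (182 CPM), Itpr2 (399.6 CPM), Ryr2 (149 CPM), Atp2b2 (313 CPM), Atp2b4 (98.4 CPM) and Slc8a1 (105 CPM), and the lowest for Ryr3 (6.31 CPM), Itpr3 (1.045 CPM, with 1.085 CPM in the next) and Atp2b1 (232 CPM). The other 3 libraries of the group had 238 to 269 CPM of Atp2b1 and 10.8 to 12.6 CPM of Ryr3. Naïve IP replicate 13 held the highest values of its group for Itpr1 (185 CPM), Atp2b1 (260 CPM), Atp2b2 (362 CPM) and Slc8a1 (112 CPM) and the lowest for Itpr2 (346 CPM), Itpr3 (0.620 CPM) and Ryr2 (103 CPM).

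Without stress IP replicate 15, 3 family shares of the IP no longer overlapped between stress and naïve mice. The share of Ryr2 was then 81.1 ± 1.28% in stress IP against 84.1 ± 1.56% in naïve IP, that of Ryr3 14.2 ± 1.18% against 12.0 ± 0.700%, and that of Atp2b1 33.4 ± 1.18% against 31.0 ± 0.896% (SD, n = 3 and 4). The smallest exact permutation p that 3 against 4 libraries allow is 0.057. These were seen among 8 libraries left out in turn and 16 shares.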
